A study of Mus musculus with 6 samples.

Results

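The genes described here encode the actins and tropomyosins, and were chosen by symbol: the actins Acta1, Acta2, Actc1, Actb and Actg1 and the tropomyosins Tpm1, Tpm2, Tpm3 and Tpm4. These 9 genes were looked up among 49366 gene windows around transcript starts, and 8 of them had a row. As rebuilt from annotated starts, the window of Actg1, which encodes gamma-cytoplasmic actin, spans 3566 bp and lies wholly inside the windows of 0610009L18Rik, Gm23419 and Mir6935, with 0 bp of its own. The accessibility of that window was not analysed here. The study measured open chromatin with ATAC-seq, where transposase inserts adapters into accessible DNA, in myonuclei sorted from hindlimb muscle for PCM1, a protein at the nuclear rim of muscle fibres. The mice were C57BL/6J males, injected at 8 weeks of age, and muscles were collected 28 days after injection. The LacZ-shRNA group (n = 3 libraries) received AAV6:LacZ-shRNA, a vector whose hairpin targets a bacterial gene, and the Yap-shRNA group (n = 3 libraries) received AAV6:Yap-shRNA against the Hippo pathway cofactor Yap, injected into opposite limbs. Each library pooled 4 gastrocnemius and 4 tibialis anterior muscles, so animals within a library cannot be separated, and both groups carried virus and hairpin.

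Actin polymerises into filaments, and tropomyosin lies along them as a coiled coil. In the sarcomere both belong to the thin filament, where tropomyosin and troponin gate the access of myosin in a calcium-dependent manner. Mammals have separate actin genes for skeletal muscle (Acta1), heart (Actc1), vascular smooth muscle (Acta2) and the cytoskeleton of most cells (Actb, Actg1). The tropomyosin genes make muscle and cytoskeletal proteins from alternative promoters and exons: Tpm1 and Tpm2 are the main sarcomeric genes of skeletal muscle, Tpm3 makes a slow-fibre protein from its upstream promoter and cytoskeletal proteins from an internal one, and Tpm4 is mainly cytoskeletal. Actin genes are classical targets of SRF, which binds the CArG box, and Yap acts through TEAD factors, which recognise the letters CATTCC.

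The promoters of Acta1, Actc1 and Tpm3 are shown because they cover an open skeletal actin promoter, a cardiac actin promoter without a peak, and the pair of Tpm3 promoters of which the internal one had a peak and the upstream one did not. Each is the 150 bases before the RefSeq start on GRCm38.p6, written 5′ to 3′ on the gene's strand, with CArG boxes, the TEAD letters and TATA boxes (TATAAA) in capitals.
Acta1, chr8:123894776-123894925, minus strand: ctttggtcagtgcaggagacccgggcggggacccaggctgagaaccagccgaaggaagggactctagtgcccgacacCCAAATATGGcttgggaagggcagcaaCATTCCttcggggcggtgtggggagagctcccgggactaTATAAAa
Actc1, chr2:114052876-114053025, minus strand: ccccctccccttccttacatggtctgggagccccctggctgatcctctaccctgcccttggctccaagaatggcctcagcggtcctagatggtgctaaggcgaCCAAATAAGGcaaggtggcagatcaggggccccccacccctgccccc
Tpm3 upstream, chr3:90072501-90072650, plus strand: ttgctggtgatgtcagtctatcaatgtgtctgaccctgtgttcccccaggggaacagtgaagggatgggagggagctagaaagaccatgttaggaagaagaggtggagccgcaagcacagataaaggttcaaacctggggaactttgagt
Tpm3 internal, chr3:90079371-90079520, plus strand: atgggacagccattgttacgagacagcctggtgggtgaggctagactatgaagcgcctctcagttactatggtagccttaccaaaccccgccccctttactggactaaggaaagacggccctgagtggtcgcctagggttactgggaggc

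Motifs were searched on both strands in the RefSeq window from 250 bases before to 50 after each start, for the members with an entry, which are all but Actb. The CArG box was searched only as the strict form CCWWWWWWGG, where W is A or T. Near matches, such as ccctatatgg before the RefSeq start of Acta2, were not counted. This strict form was found at Acta1, 73 to 64 bases before the start, at Actc1 and at Actg1, and in 1.63% of all 32851 promoters. The TEAD letters were found at Acta1, 46 to 41 bases before the start, at Tpm1 and at Acta2, and in 14.7% of promoters. Acta1 was the member that held both, together with a TATA box 7 to 2 bases before the start, and 13.6% of promoters held a TATA box. Actc1 also held a TATA box, 33 to 38 bases past its start and so outside the bases printed above. Distances are counted from the RefSeq start. At Acta1 that start, 123894775, lies upstream of the first annotated start, 123894751. The GC box (GGGCGG) occurred 6 times at Actg1, 5 at Tpm4, 3 at Tpm2, 2 at Acta1 and 1 each at Tpm1 and the internal Tpm3 promoter, and not at Actc1, Acta2 or the upstream Tpm3 promoter, against 35.7% of promoters with at least 1. Every member promoter searched held an E-box (CANNTG), as did 72.3% of all promoters, and none held a MEF2 site, found in 0.557%. CArG, TEAD and TATA letters were absent from both Tpm3 windows.

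The promoters also differed in base composition. In the 501 bp centred on the first annotated start, the observed to expected CpG ratio was 0.07 at Actc1, 0.276 at Acta2 and 0.33 at Acta1, below the median of 0.586 over the first starts of 21938 protein-coding genes. These starts differ from the RefSeq starts used for the motifs. At Actc1 the first annotated start, 114053548, lies upstream of the RefSeq start, 114052875. The Actc1 ratio therefore does not cover the promoter printed above. The ratio was 0.953 at Actb and 1.02 at Actg1, the cytoskeletal actins. Among the tropomyosins it was 0.77 at Tpm1, 0.581 at Tpm2 and 0.542 at Tpm4. At Tpm3 it was 0.154 at the upstream start and 0.741 at the internal one. The muscle actins and the upstream Tpm3 start lay below the median, the cytoskeletal actins, Tpm1 and the internal Tpm3 start above it, and Tpm2 and Tpm4 close to it.

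The libraries held 3326803 to 10319467 read pairs counted in windows, and LacZ-shRNA replicates 1 and 2 were the shallowest. Skeletal fibre markers had a median accessibility of 18.7 CPM per kb of window (CPM is the count scaled to library size), with 8 of 10 above the protein-coding median of 5.71. The lists for smooth muscle, endothelium, leukocytes, satellite cells and fibroblasts had medians of 7.08, 5.22, 4.7, 5.33 and 3.74, with no measured marker at 0. The design text of the series names cardiomyocytes, while the source label is skeletal muscle, and the 5 cardiac markers had a median of 6.65. Of the cardiac markers 5 of 5 were above the protein-coding median, of smooth muscle 6 of 8, of endothelium 2 of 6, of leukocytes 2 of 4, of satellite cells 2 of 4 and of fibroblasts 1 of 6. The highest of the smooth muscle list was the desmin gene Des, which is not specific to smooth muscle, at 29.7 CPM per kb. The next was Smtn, at 14.95. The summed cardiac level was 29.8 to 36.5 in LacZ-shRNA and 37.9 to 39.7 in Yap-shRNA libraries, without overlap. The endothelial sum was 32.7 to 34.0 and 30.3 to 32.2, also without overlap but in the other direction. Of single windows, 10.1% did not overlap, and the remaining sums overlapped. The fibre sum was 205 to 281 and 220 to 247, the smooth muscle sum 71.0 to 92.0 and 80.7 to 86.5, the fibroblast sum 22.7 to 25.7 and 25.1 to 31.0, the leukocyte sum 18.5 to 25.3 and 22.0 to 24.5, and the satellite cell sum 19.7 to 22.6 and 19.2 to 20.7. The part of these sums in the results below was not tested. The shRNA acts on Yap mRNA, so the accessibility of the Yap1 window, 12.1 to 16.7 CPM in LacZ-shRNA and 12.1 to 16.5 CPM in Yap-shRNA libraries, does not check the knockdown.

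The first question was how open the isoform genes stood relative to each other. Each gene's window was taken to join 1 kb on either side of all its annotated transcript starts. Levels are therefore compared per kb of this rebuilt window. Acta1, the actin of adult skeletal fibres, was the most accessible, at 34.3 CPM per kb ± 5.71 (SD, n = 6 libraries). Tpm2 followed at 29.7 ± 5.30, Tpm1 at 27.8 ± 3.41 and Actb at 27.7 ± 3.07. These 4 genes lay between percentiles 99.22 and 99.66 of 20540 protein-coding windows. Tpm4 at 7.79 ± 0.953 and Tpm3 at 6.73 ± 0.562 were near the middle, at percentiles 70.56 and 60.94. By full window length, cardiac Actc1, at 4.53 ± 0.276, and smooth muscle Acta2, at 4.2 ± 0.753, were below the protein-coding median, at percentiles 36.65 and 32.72. The Actc1 window is partly shared with another gene, and its level per unshared kb was 8.33 CPM.

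**Figure D1:**
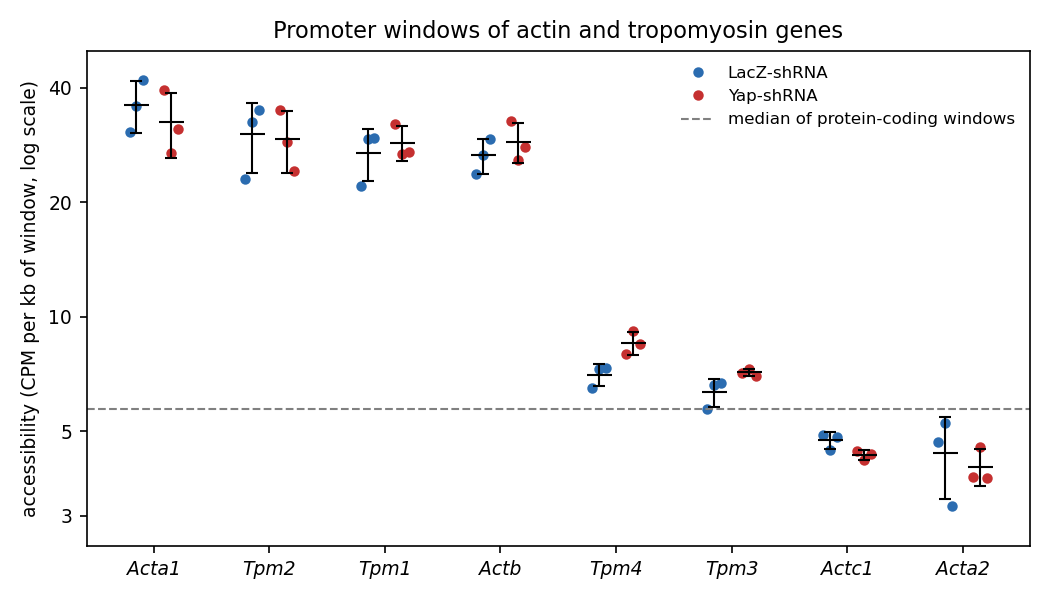
Accessibility of each gene's window in CPM per kb on a log axis, with 3 LacZ-shRNA (blue) and 3 Yap-shRNA (red) libraries, horizontal bars for the mean, whiskers for the SD and a dashed line at the protein-coding median of 5.71. Acta1, Tpm2, Tpm1 and Actb stand apart from the other 4 genes in all 6 libraries.

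The order separated into a high and a low set in every library. The gap between Actb and Tpm4 was 3.56-fold and had the same direction in 6 of 6 libraries (two-sided exact sign-change permutation p = 0.03125, the smallest that 6 libraries allow, adjusted p = 0.0729 over 7 neighbour pairs). Per kb of full window, Tpm4 exceeded Tpm3 by 1.15-fold and Tpm3 exceeded Actc1 by 1.48-fold, each in 6 of 6 libraries with the same p and adjusted p. Within the high set the exact permutation p was 0.0625 for Acta1 over Tpm2, with Acta1 the higher in 5 of 6 libraries, 0.219 for Tpm2 over Tpm1 and 0.875 for Tpm1 over Actb. Actc1 and Acta2 did not separate either (exact permutation p = 0.406). No neighbour pair passed an adjusted p of 0.05 in this design. The neighbour pairs and their order came from the means of these same 6 libraries. Their p-values are therefore not those of comparisons set beforehand. The test took the 6 libraries of both groups together, and the labels do not state separate animals for each. It measures how alike a difference was across these libraries, for levels that depend on window length.

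By default featureCounts does not count reads that touch more than 1 window. The study's methods state default settings, apart from mapping quality, for counts over whole genes, and do not name the windows. Actg1, whose window had 0 bp outside other windows, had no row. The windows of Acta1 and Actc1 hold only 76.1% and 54.4% of their length outside the windows of Gm29773 and C130080G10Rik. If the shared parts were left out of the counts, the level per kb of unshared window applies. By that measure Acta1 stood at 45.0 CPM and Actc1 at 8.33 CPM, which placed Actc1 above Tpm4 and Tpm3. That Actc1 level is also above 5.71, the protein-coding median by full window length. Counted without length, Tpm1 came first and Actc1 last, and Tpm3 stood above Tpm4. Within actin, Acta1 exceeded Actc1 by 6.26-fold to 8.87-fold and Acta2 by 5.91-fold to 13.1-fold in single libraries, per kb of full window, shared parts included. Within tropomyosin, Tpm2 exceeded Tpm4 by 2.85-fold to 4.76-fold and Tpm1 exceeded Tpm3 by 3.66-fold to 4.51-fold.

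Peaks of accessibility, kept when found in at least 2 libraries, show where in each gene the open chromatin lay. Of 10 peaks within 5 kb of a member gene, 5 lay at a start, 3 overlapped a gene elsewhere (called in-gene below) and 2 lay in the flank. Acta1 lay whole within 1 peak of 6946 bp (chr8:123890371-123897316), which reached 2565 bp upstream and 1398 bp past the gene's end. It also holds the start of Gm29773. Tpm2 had a peak of 7004 bp (chr4:43518287-43525290) over its start and 60.5% of its body. These widths were at percentiles 99.96 and 99.98 of 12725 promoter peaks, whose median was 1145 bp.

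At Tpm1 the promoter peak was 4749 bp (chr9:67046701-67051449, percentile 99.47) and covered the first start but not the internal starts 5444 bp downstream. Actb, the cytoplasmic beta-actin, had a peak of 2210 bp (chr5:142905104-142907313, percentile 91.02). Only 3.32% of promoter peaks reached 3 kb, and the peaks of the 3 sarcomeric genes Acta1, Tpm1 and Tpm2 were among them while that of Actb was not. CPM per kb of peak, a mean density that divides by width, did not follow width. It was highest at the Actb promoter peak, at 56.2 ± 3.13, followed by Tpm1 at 44.2 ± 4.20, Acta1 at 42.5 ± 5.60 and Tpm2 at 41.9 ± 4.96 (SD, n = 6 libraries). Not divided by width, the LacZ-shRNA means were 295 CPM at Acta1, 294 at Tpm2, 211 at Tpm1 and 122 at Actb. The median density over all 36097 peaks was 20.1 CPM per kb. Tpm3 stood near that median, at 22.9 ± 4.37.

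The starts of Acta2, Actc1, Actg1 and Tpm4 had no peak in the table within 1 kb. Tpm3 had a peak of 1311 bp (chr3:90078953-90080263, percentile 61.55 by width) at its internal starts, those of the cytoskeletal isoforms, and none at the upstream start 6891 bp away. Inside the Tpm3 window the counts per kb were 2.19 to 3.68 times higher in this peak than in the remaining 9.28 kb. Of the Tpm3 promoters printed above, the one with the higher CpG ratio was the one with the peak.

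**Figure D2:**
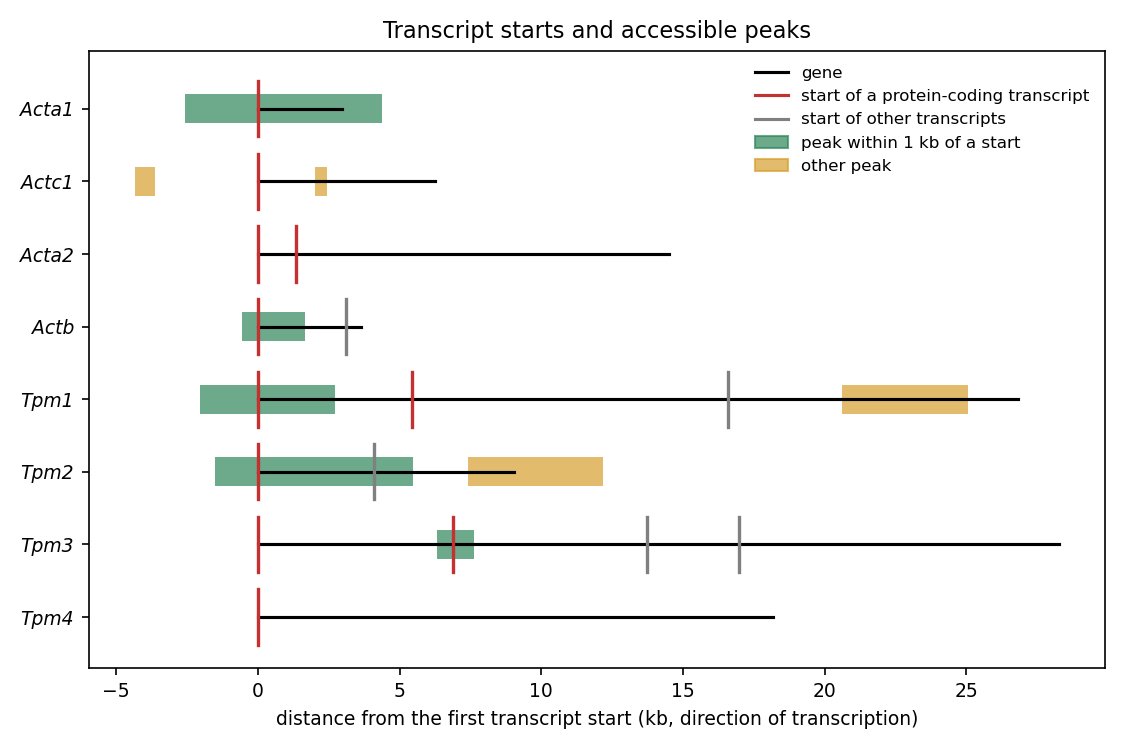
Transcript starts and peaks along 8 genes, in kb from the first start in the direction of transcription; black lines are genes, red ticks starts of protein-coding transcripts, grey ticks other starts, green boxes peaks within 1 kb of a start and yellow boxes other peaks. The Acta1 peak of 6946 bp covers the whole gene, Tpm1 and Tpm2 each have a further broad peak towards the 3′ end, and the Tpm3 peak lies at the internal starts.

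The second question was whether Yap knockdown altered accessibility at these genes. None of the 8 windows was called (edgeR quasi-likelihood test, adjusted p under 0.05), against 0.0223% of all windows, and none had an unadjusted p under 0.05, against 4.9%. DESeq2 gave an adjusted p to 5 of the 8, all but Acta2, Actc1 and Tpm4, and called none of the 5. Log2 fold changes (Yap-shRNA over LacZ-shRNA) were above 0 for 4 of 8 windows, against 47.3% of all windows, and their median was 0.02 against -0.014. The groups did not overlap at 3 windows (10.1% of all windows). In 2 of them every Yap-shRNA library was higher than every LacZ-shRNA library (5.31% of all windows), and in 1 every one was lower (4.79%).

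The 3 muscle actins had fold changes below 0, none of them called, and the sign at Acta2 depended on the setting. The Acta1 window held 61.3, 71.5 and 83.7 CPM in LacZ-shRNA replicates 1 to 3 and 78.7, 53.7 and 62.4 CPM in Yap-shRNA replicates 1 to 3. The groups overlapped, with a log2 fold change of -0.16 (SE 0.146, 95% interval -0.45 to 0.14). The edgeR adjusted p was 0.951. Leaving out single libraries gave log2 fold changes from -0.32 (Yap-shRNA replicate 1 left out) to -0.03 (when LacZ-shRNA replicate 3 was the one omitted), and none was called.

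Actc1 held 13.0, 11.9 and 12.9 CPM in LacZ-shRNA and 11.8, 11.2 and 11.6 CPM in Yap-shRNA libraries. All 3 Yap-shRNA values were the lower ones, by a small margin, and the log2 fold change was -0.14 (SE 0.177, 95% interval -0.50 to 0.22, edgeR adjusted p = 0.964). Acta2 held 15.7, 17.6 and 10.7 CPM against 12.7, 15.3 and 12.6 CPM, and overlapped (log2 fold change -0.06, SE 0.185, edgeR adjusted p = 0.987). The 37 to 120 reads per library at Actc1 and 55 to 164 at Acta2 limit both values.

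Beta-actin, the cytoskeletal actin of this set, had a fold change above 0 and no call. Actb held 117, 131 and 145 CPM in LacZ-shRNA and 161, 128 and 138 CPM in Yap-shRNA libraries. The groups overlapped and the log2 fold change was 0.11 (SE 0.140, 95% interval -0.17 to 0.40, edgeR adjusted p = 0.963). Leaving out single libraries gave 0.01, without Yap-shRNA replicate 1, to 0.19. The 2 actins were also compared as a ratio inside each library, which no scaling between libraries can move and which was chosen after the values were seen. The Acta1 to Actb ratio per kb was 1.29, 1.34 and 1.43 in LacZ-shRNA and 1.21, 1.04 and 1.12 in Yap-shRNA libraries. Its mean was 1.35 ± 0.0699 and 1.12 ± 0.0832 (SD, n = 3 each), every Yap-shRNA value was lower, and the exact permutation p was 0.1, the smallest that 3 against 3 allows. The same ratio to Actb was taken for 13496 protein-coding windows without a shared part and with a mean count of at least 50. Acta1, whose window has a shared part, is not among them. Of these windows 8.69% had a ratio that was lower without overlap in the same way, and 9.01% did not overlap in either direction.

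Among the tropomyosins, the Tpm1 and Tpm2 windows overlapped between groups and those of Tpm3 and Tpm4 did not. Of all windows, 10.1% did not overlap in either direction. Tpm1 held 144, 192 and 193 CPM in LacZ-shRNA and 210, 175 and 177 CPM in Yap-shRNA libraries, with LacZ-shRNA replicate 1 below the rest (log2 fold change 0.09, SE 0.145, edgeR adjusted p = 0.975). Tpm2 held 101, 143 and 153 CPM against 153, 126 and 106 CPM (log2 fold change -0.04, SE 0.153, edgeR adjusted p = 0.989). The 95% intervals, -0.21 to 0.38 for Tpm1 and -0.35 to 0.27 for Tpm2, leave room for changes in either direction.

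Tpm3 held 60.6, 69.9 and 70.8 CPM in LacZ-shRNA and 75.4, 77.3 and 74.2 CPM in Yap-shRNA libraries. Every Yap-shRNA value was higher, with a log2 fold change of 0.17 (SE 0.132, 95% interval -0.09 to 0.44, edgeR adjusted p = 0.949). Tpm4 held 14.8, 16.7 and 16.8 CPM against 18.2, 21.0 and 19.4 CPM, again without overlap. Its log2 fold change of 0.28 (SE 0.160, 95% interval -0.04 to 0.60) was the largest of the 8 windows, with an unadjusted p of 0.0877 and an adjusted p of 0.946 by the edgeR test. These 2 windows rest on different depth, 218 to 830 reads for Tpm3 and 52 to 225 for Tpm4.

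Set side by side, the 5 muscle isoform genes (Acta1, Acta2, Actc1, Tpm1 and Tpm2) had a median log2 fold change of -0.06 and the 2 non-muscle genes with a window (Actb and Tpm4) one of 0.20, a difference of -0.25. The median over all windows was -0.014. With Tpm3 among the muscle genes the difference was -0.25, with Acta2 left out -0.29, and with single libraries left out -0.33 to -0.19. With 2 non-muscle genes this is a description of the named genes.

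**Figure D3:**
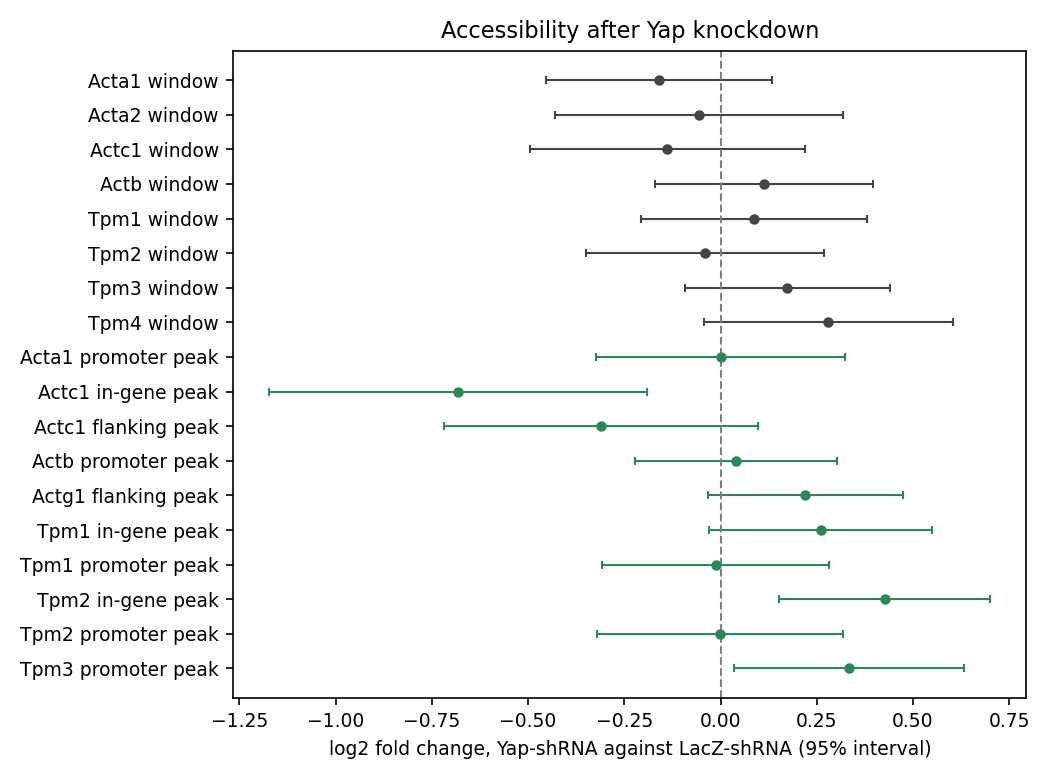
Log2 fold change of Yap-shRNA against LacZ-shRNA with its 95% interval from the edgeR quasi-likelihood fit, for 8 windows (grey) and 10 peaks (green). All window intervals include 0, and those of the Actc1 in-gene, Tpm2 in-gene and Tpm3 promoter peaks do not, although none of the 10 passed the adjusted threshold. The Tpm2 in-gene peak lies mostly beyond the end of the gene.

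The peaks add the regions outside the starts. None of the 10 peaks was called (0.618% of all peaks), 6 had a log2 fold change above 0 (49.5% of all peaks), 3 had an unadjusted p under 0.05 (8.9% of all peaks), and extending the search to 20 kb gave 24 peaks, none called. DESeq2 called none of the 9 to which it gave an adjusted p, all but the Actc1 in-gene peak. At the promoter peaks of Acta1, Tpm1, Tpm2 and Actb the log2 fold changes were 0.00 (SE 0.161), -0.01 (SE 0.146), -0.00 (SE 0.159) and 0.04 (SE 0.130). The 95% intervals for Acta1 and Tpm2 ran from 0.799-fold to 1.25-fold and from 0.800-fold to 1.25-fold.

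The internal promoter peak of Tpm3 held 21.6, 30.2 and 28.3 CPM in LacZ-shRNA and 31.1, 39.5 and 29.8 CPM in Yap-shRNA libraries. The groups overlapped by 1 library, and a log2 fold change of 0.33 (SE 0.148) had an unadjusted p of 0.0292 and an adjusted p of 0.469 by the edgeR test. At Actc1 a peak of 397 bp in an intron (chr2:114051119-114051515) held 12.1, 10.2 and 11.3 CPM against 6.48, 9.03 and 5.46 CPM. All Yap-shRNA values were lower, on 24 to 77 reads per library. The log2 fold change was -0.68 (SE 0.244), with an unadjusted p of 0.00766 and an adjusted p of 0.296 by the edgeR test. Values lower in Yap-shRNA without overlap were found in 6.76% of all peaks, and 13.3% did not overlap in either direction. The nearest peak to Actg1 (chr11:120352759-120354170), 4217 bp from its closest start, held 50.7, 67.1 and 60.8 CPM against 65.2, 70.2 and 71.6 CPM, which overlapped (log2 fold change 0.22, SE 0.126, edgeR adjusted p = 0.649).

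Both main sarcomeric tropomyosin genes had a further broad peak towards the 3′ end. That of Tpm2 (chr4:43511603-43516350, 4748 bp) covers 1640 bp of the end of the gene, 1293 bp of Tpm2 exons and 3108 bp beyond it. It lies within 1 kb of a transcript start of Car9, a carbonic anhydrase gene, so its reads cannot be assigned to 1 gene. It held 110, 118 and 116 CPM in LacZ-shRNA and 175, 156 and 132 CPM in Yap-shRNA libraries. Every Yap-shRNA value was higher (6.55% of all peaks). The log2 fold change was 0.43 (SE 0.136, 95% interval 0.15 to 0.70), with an unadjusted p of 0.00307 and an adjusted p of 0.190 by the edgeR test. The adjusted p ran from 0.0316 to 0.646 over 12 other settings, and fell below 0.05 with loess offsets (0.0316) and with library size alone (0.0462).

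The peak near the end of Tpm1 (chr9:67024354-67028803, 4450 bp, 488 bp of it exonic) held 174, 187 and 206 CPM in LacZ-shRNA and 247, 221 and 213 CPM in Yap-shRNA libraries. The groups did not overlap. The log2 fold change was 0.26 (SE 0.144), with an unadjusted p of 0.0779 and an adjusted p of 0.636 by the edgeR test. The promoter peaks of the same genes did not share this direction, so the ratio of the in-gene to the promoter peak, in raw counts, was taken inside each library, a measure chosen after the values were seen.

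At Tpm1 this ratio was 0.941, 0.831 and 0.927 in LacZ-shRNA and 1.06, 1.09 and 1.12 in Yap-shRNA libraries. Its mean was 0.900 ± 0.0602 and 1.09 ± 0.0303 (SD, n = 3 each, exact permutation p = 0.1, the smallest possible). At Tpm2 it was 0.423, 0.383 and 0.372 against 0.516, 0.530 and 0.534, with means of 0.393 ± 0.0266 and 0.526 ± 0.00927 (SD, n = 3 each, exact permutation p = 0.1). Both genes had higher ratios in all Yap-shRNA libraries. Of 7328 pairs of an in-gene and a promoter peak of protein-coding genes, 5.92% did so, and of the 21 pairs in which both peaks reached 3 kb, 23.8% did, the Tpm1 and Tpm2 pairs included.

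**Figure D4:**
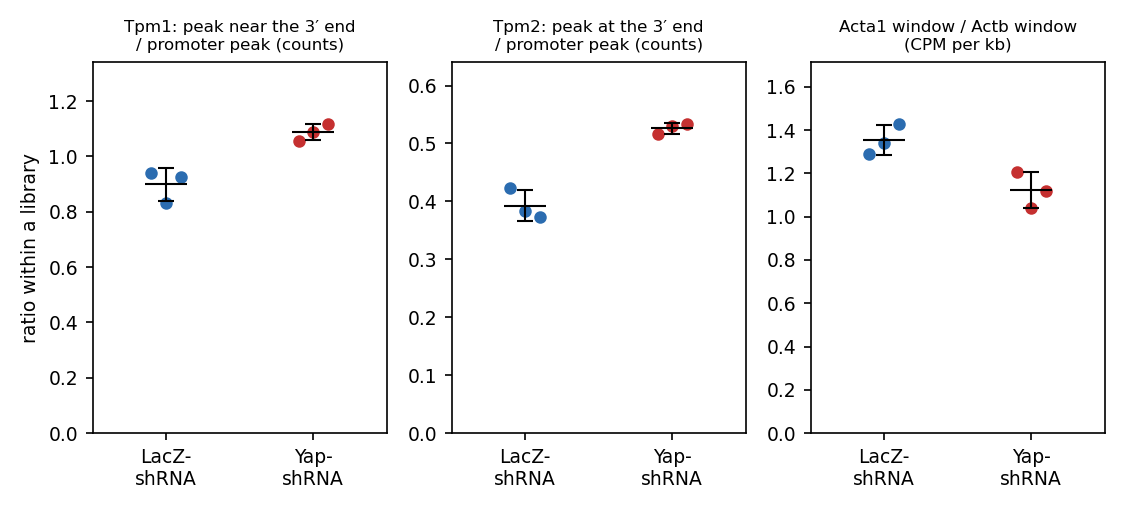
Ratios taken inside each library for 3 LacZ-shRNA (blue) and 3 Yap-shRNA (red) libraries, with the mean as a bar and the SD as whiskers, on axes that start at 0. The in-gene to promoter peak ratios of Tpm1 and Tpm2 are higher, and the Acta1 to Actb window ratio lower, in every Yap-shRNA library. Most of the Tpm2 in-gene peak lies beyond the end of the gene.

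The genes around actin were read from 3 lists. Of 32 windows for the thin filament and actin assembly, none was called, 2 had an unadjusted p under 0.05, 19 were higher and 13 lower, with a median log2 fold change of 0.03. Tmsb4x, which encodes the actin monomer-binding thymosin beta-4, held 5.61, 4.17 and 4.90 CPM in LacZ-shRNA and 10.9, 6.98 and 8.58 CPM in Yap-shRNA libraries, all higher (log2 fold change 0.82, SE 0.249). The unadjusted p was 0.00203 and the adjusted p was 0.946 by the edgeR test. The Tmsb4x level was low, at 2.75 CPM per kb, against a 10th percentile of 2.32 over protein-coding windows. Lmod2, a leiomodin that nucleates thin filaments, held 16.6, 25.3 and 22.6 CPM against 16.2, 15.7 and 16.8 CPM (log2 fold change -0.39, SE 0.164, edgeR adjusted p = 0.946), with LacZ-shRNA replicate 1 among the Yap-shRNA values.

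Of 8 windows for SRF and its cofactors, none was called, 2 had an unadjusted p under 0.05, and the median log2 fold change was -0.05. Abra, which encodes a striated muscle activator of SRF signalling, held 43.2, 57.7 and 52.1 CPM in LacZ-shRNA and 43.0, 34.7 and 35.0 CPM in Yap-shRNA libraries, all lower (log2 fold change -0.43, SE 0.141). The unadjusted p was 0.00399 and the adjusted p was 0.946 by the edgeR test. Without LacZ-shRNA replicate 1 its log2 fold change was -0.53, with an edgeR adjusted p of 0.0137. Mrtfa, the actin-sensing cofactor of SRF, held 65.7, 94.8 and 82.7 CPM against 98.9, 96.3 and 106 CPM, all higher (log2 fold change 0.32, SE 0.140, edgeR adjusted p = 0.946).

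Of 15 measured windows, from a list of 16, for actin folding by the CCT chaperonin and prefoldin, none was called or had an unadjusted p under 0.05, and the median log2 fold change was -0.02. The smallest p values belonged to the chaperonin subunit gene Cct7 (log2 fold change 0.26, SE 0.165, edgeR adjusted p = 0.946) and the prefoldin subunit gene Pfdn2 (log2 fold change -0.24, SE 0.166, edgeR adjusted p = 0.949). Across all 3 lists the shares with an unadjusted p under 0.05 stand beside 4.9% of all windows. Of all windows, 5.31% were higher and 4.79% lower in Yap-shRNA without overlap, beside the genes called all higher or all lower above.

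The genes whose levels followed the actins most closely over the 6 libraries were named by the mean absolute difference of centred log2 CPM. They were sought among 13497 protein-coding windows (13496 for Actb) without a shared part and with a mean count of at least 50. For Acta1 they were Naca at 0.0337, whose long isoform is specific to striated muscle, Dusp27 at 0.0400 and the myotubularin gene Mtm1 at 0.0503. For Actb they were Cecr2 at 0.0147, Phlda3 at 0.0264 and Dbt at 0.0283. Because these genes were picked for likeness over the same libraries, the lows and highs they share follow from the choice. All 6 had their lowest LacZ-shRNA value in replicate 1, as Acta1 and Actb did. For the Acta1 group the lowest value of all was in Yap-shRNA replicate 2, and for the Actb group the highest was in Yap-shRNA replicate 1.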

How the data were processed

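ATAC-seq was performed on PCM1+ myonuclei, 3 libraries per group. Per the study's methods, the authors aligned reads to GRCm38 with BWA 0.7.17 and took out duplicates in SAMtools 1.8. MACS 1.4.2-1 gave the peaks, of which those seen in at least 2 samples were kept, and featureCounts 1.5.0 the counts. No shift of reads to the transposase cut is stated in the sources used here. The deposited values were raw counts per window and per peak, with rows under a mean of 10 dropped. Per library they totalled 3326803 to 10319467 in windows and 2588520 to 6871176 in peaks. With 3 libraries a group, whose labels do not state separate animals for each, p-values measure the spread between these pools.

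Windows were rebuilt from GENCODE vM21 starts (1 kb to either side, joined per gene), and all 49366 row identifiers matched. That match does not check the window lengths. All windows, and separately all 36097 peaks, were fitted in edgeR 4.0.16 (R 4.3.3) with TMM factors and glmQLFTest, and p-values were adjusted by Benjamini-Hochberg at 0.05 over each whole table. SE and 95% intervals came from the same fit. CPM used TMM library sizes. Levels were compared by exact sign-change permutation over 6 libraries. Peaks were linked to a gene within 5 kb. Promoters were RefSeq sequences; 9 promoters of 8 members matched by symbol. Fits were tested on simulated counts.

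All members were named, with the highest promoter peak, other peaks at starts and the smallest p per gene, and the 2 smallest p in each list. The members and lists were chosen with earlier results of these data known. Alternatives were DESeq2 1.42.0, the edgeR likelihood-ratio test, library size alone, loess offsets (span 0.3), a mean count of 50, a replicate block and leaving out each library.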

Additional observations from a re-analysis of the deposited data

How the results depend on the processing

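No window of a member was called in any of 12 alternatives, though DESeq2 gave 3 of the 8 no adjusted p. Over these alternatives the count of all windows called ran from 4 to 157, against 11, and that of all peaks from 94 to 447, against 223. A single peak, the Tpm2 in-gene peak, was called with loess offsets on abundance (1 of 10 peaks, log2 fold change 0.52) and with library size alone (1 of 10, 0.57). That peak lies mostly beyond the end of Tpm2 and within 1 kb of a Car9 start. Library size alone moved the median of all peaks to 0.137 on the log2 scale. Leaving out LacZ-shRNA replicate 1 raised called windows to 157 and called 1 window of the lists, Abra, where leaving out any other library called 0. The replicate numbers were not shown to pair the libraries (correlations of deviations 0.191, -0.121 and 0.0923 in windows and 0.0155, -0.0931 and -0.139 in peaks), and the replicate block gave 13 called windows and 207 called peaks, none at a member.

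Fold changes close to 0 changed sign in some settings. With library size alone the log2 fold change was 0.00459 for Acta2, 0.028 for the Tpm2 window, 0.134 for the Tpm1 promoter peak and 0.146 for the Tpm2 promoter peak, and with loess offsets these promoter peaks were at 0.142 and 0.202. The Acta1 promoter peak gave -0.00283 with DESeq2, -0.00458 with a mean count of 50 and -0.0079 with the replicate block. Leaving out single libraries gave ranges of -0.28 to 0.073 for the Acta2 window, -0.043 to 0.16 for Tpm1 and -0.21 to 0.087 for Tpm2. The other windows kept their sign, at -0.32 to -0.025 for Acta1, -0.17 to -0.11 for Actc1, 0.013 to 0.19 for Actb, 0.10 to 0.22 for Tpm3 and 0.22 to 0.33 for Tpm4. For the promoter peaks they were -0.15 to 0.077 at Acta1, -0.0096 to 0.088 at Actb, -0.10 to 0.034 at Tpm1 and -0.12 to 0.093 at Tpm2. The cause of each sign change was not tested. Depth limits Actc1, Acta2 and Tpm4, whose windows held as few as 37, 55 and 52 reads.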
